A study of Danio rerio with 32 samples.

Results

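Cytosolic ribosomal protein genes were followed through zebrafish tailbuds with cohesin mutations, with and without stimulation of the Wnt pathway. The members were the rows of the count matrix whose gene symbol begins with rpl or rps followed by a digit, a or p, after rps6k genes, rps27l and rps19bp1 were set aside. The rule found 83 genes among 32057. By symbol alone, 47 were assigned to the large ribosomal subunit (rpl) and 36 to the small subunit (rps). The 83 genes lie on 25 chromosomes. The rule reads symbols and no measured value.

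Each ribosome carries a single copy of most of these proteins, and the cell makes them in matched amounts. In vertebrates their messages begin with a short pyrimidine tract, the 5′ TOP motif, through which mTOR signalling and the RNA-binding protein Larp1 govern translation and storage, while Myc raises their transcription together with that of the factors that assemble ribosomes. Free Rpl5 and Rpl11, bound to 5S rRNA, hold Mdm2 and so stabilise p53. Loss of single ribosomal proteins causes Diamond-Blackfan anaemia in people and p53-dependent defects in zebrafish embryos.

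Tailbuds were excised at the 16-somite stage from wild-type WIK fish, from fish homozygous (rad21-/-) or heterozygous (rad21+/-) for the rad21 nz171 allele, and from fish homozygous for the stag2b nz207 allele (stag2b-/-). Rad21 is a core subunit of cohesin, the ring that shapes chromosomes, and Stag2 is a variable subunit that directs the ring to chromatin. Each genotype was left untreated or grown in 2.5 µM BIO (6-bromoindirubin-3′-oxime), an inhibitor of Gsk3 that activates Wnt signalling, from 4 hours post fertilisation until dissection. Every one of the 8 groups had 4 pools of 80 tailbuds, and the heads of the rad21 line were genotyped so that tailbuds could be pooled by genotype. Nothing states that the wild-type embryos were siblings of the mutants. In comparisons with wild type, the mutation therefore cannot be told apart from other differences between the lines.

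The 32 libraries held between 32464614 and 115057368 counted fragments. Counts of rad21a, the mutated rad21 gene, were 784 ± 70.8 CPM (fragments scaled to library size; SD, n = 4) in untreated wild type, 53.9 ± 8.52 in rad21-/- and 378 ± 31.2 in rad21+/-. Counts of stag2b were 188 ± 22.2 CPM in wild type and 165 ± 7.78 CPM in stag2b-/-, so its level separates those groups poorly. Of 14 tailbud markers, 13 were matched and 12 of these reached 1 CPM in every library, among them tbxta, tbx16, msgn1 and tbx6. Skin markers summed to between 20815 and 68098 CPM, and the head markers to at most 9.2 CPM. In bulk tissue, fewer cells of a type and less RNA per cell cannot be told apart.

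The 83 genes, 0.259% of those in the matrix, took between 10.04% and 16.76% of all counted fragments. In untreated wild type the 4 libraries held 15.38%, 11.3%, 11.6% and 13.5% in replicates 1 to 4, and with BIO they held 15.27%, 12.5%, 12.04% and 13.22%. The spread among replicates of wild type was far wider than the gap between its treatments, whose means were 12.9% ± 1.89 and 13.3% ± 1.43 (SD, n = 4 each).

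In rad21-/- the share was 14.2%, 11.6%, 12.1% and 13.2% untreated, and 16.76%, 13.54%, 12.76% and 15.03% with BIO. In rad21+/- it was 14.34%, 12.35%, 10.04% and 12.64% untreated, and 15.62%, 12.48%, 13.23% and 15.97% with BIO. In stag2b-/- it was 14.1%, 10.7%, 12.1% and 13.9% untreated, and 16.2%, 12.7%, 13.1% and 14.7% with BIO. Untreated and BIO libraries overlapped in all 4 genotypes, although the mean with BIO was higher in each: 14.5% ± 1.77 against 12.8% ± 1.18 in rad21-/-, 14.3% ± 1.73 against 12.35% ± 1.77 in rad21+/-, and 14.2% ± 1.61 against 12.7% ± 1.59 in stag2b-/- (SD, n = 4).

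**Figure D1:**
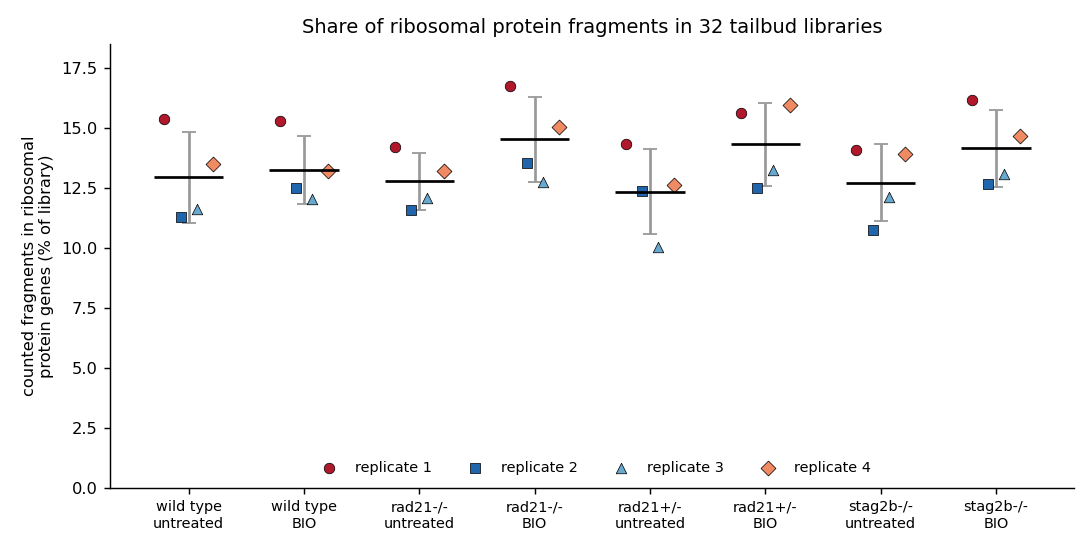
Share of counted fragments in the 83 ribosomal protein genes (y axis, percent of the library) for the 4 libraries of each genotype and treatment (x axis). Colours and shapes give the replicate number, horizontal bars the group mean and whiskers 1 SD: the share ran from 10.04% to 16.76%, and replicate 1 was the highest library in 7 of 8 groups.

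The share followed the replicate number in the labels. It averaged 15.2% ± 0.970 over the 8 libraries numbered 1, 12.1% ± 0.884 over those numbered 2, 12.1% ± 1.01 over those numbered 3 and 14.02% ± 1.12 over those numbered 4 (SD, n = 8 each). Replicate 1 was highest in 7 of 8 groups and replicate 2 or 3 was lowest in 8 of 8. The mitochondrial share of fragments, which ran from 0.87% to 2.78% in all, was 0.87% to 1.66% in libraries numbered 1 and 1.21% to 1.66% in those numbered 4, against 1.2% to 2.78% and 1.43% to 2.34% in those numbered 2 and 3. The labels do not say what the number marks. Taken within numbers 1 to 4, the share with BIO minus the share untreated was -0.11, 1.2, 0.44 and -0.28 percentage points in wild type and 2.56, 1.96, 0.68 and 1.82 in rad21-/-. The same differences were 1.28, 0.13, 3.19 and 3.33 in rad21+/- and 2.1, 1.91, 0.96 and 0.75 in stag2b-/-. With BIO the share was thus higher within 4 of 4 numbers in each mutant and within 2 of 4 in wild type.

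Individual ribosomal protein genes followed this common movement closely. For the 80 members with a mean of at least 1000 counts per library, log2 CPM values were taken as deviations from their group means. A single value per library, the median deviation of the members, carried 91.2% of the variance of these deviations. It was above 0 in 8 of 8 libraries numbered 1 and 8 of 8 numbered 4, and in 0 of 8 numbered 2 or numbered 3, and spanned -0.33 to 0.43 on the log2 scale. The median correlation between pairs of members was 0.95 over the 32 libraries, which share depth, scaling and any variation of the pools. A typical member had an SD of 0.229 log2 units within groups, and of 0.0596 once the library median was subtracted. For 7446 other genes with at least 1000 counts the typical SD was 0.155.

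Levels per kilobase of exon differed widely among members. The large-subunit gene rplp0, which forms the base of the P stalk where elongation factors dock, led with 4009 CPM per kilobase of exon as a mean of 32 libraries (range 3004 to 5415). It was followed by rpl32 with 3667 and rps20 with 3546, whose ranges overlap that of rplp0. The 80 well-covered members ended with rpl7l1 at 114 (83.2 to 174), below rpl9 at 191 and rpl22 at 214. Exons of rpl9 and rpl22 overlap those of another gene on the same strand, where fragments were not counted. The order also depends on the exon length in the annotation.

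After rpl7l1 the level fell steeply to 3 members, rps11l at 2.74, rps8b at 0.805 and rpl26 at 0.566 CPM per kilobase. Their mean counts per library were 85.6, 54.4 and 17.5. Rpl26 sits in the large subunit, and in mammals it also regulates translation of p53. The row carrying its name spans 14:52563794-52568371 (GRCz11, plus strand), overlaps exons of atp6v0e1 on the same strand, and fragments that fell on both genes were not counted. In all, exons of 16 members overlapped those of another gene on the same strand, often a small nucleolar RNA.

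**Figure D2:**
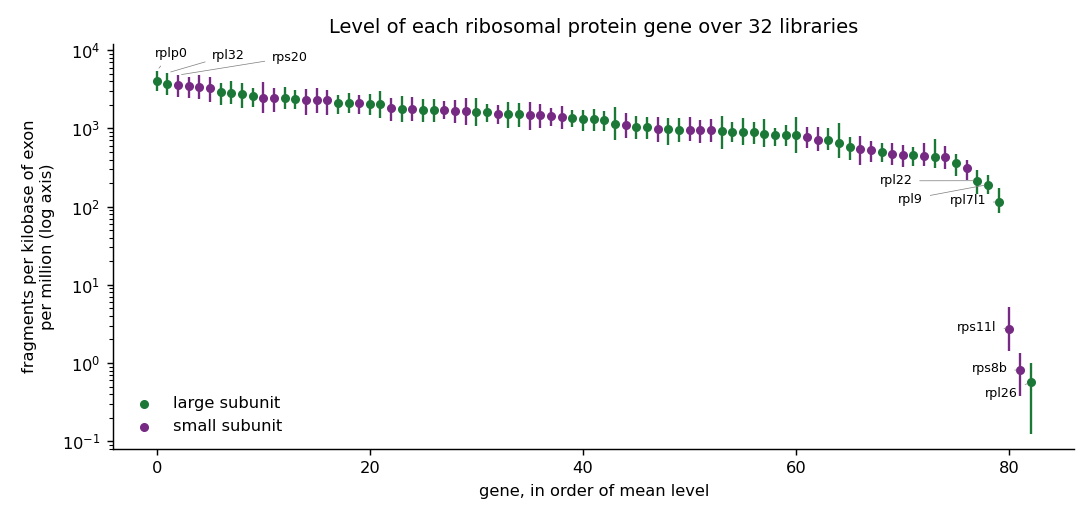
Mean level of each of the 83 genes over 32 libraries (points) with the lowest and highest library (lines), in CPM per kilobase of exon (fragments scaled to library size and exon length) on a log axis, ordered by mean. The mean lies between 114 and 4009 for 80 members, and rps11l, rps8b and rpl26 lie between 0.566 and 2.74.

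The first question was whether these genes differed between untreated wild type and untreated tailbuds with rad21 mutated, on 1 or both alleles, or with stag2b mutated. Nearly all stayed below the threshold (edgeR quasi-likelihood test, Benjamini-Hochberg adjusted p under 0.05 over all genes tested). In rad21-/- against wild type 1 of 83 members was called higher and 0 lower, whereas of 20677 genes 15.8% were called higher and 16.7% lower. The median log2 fold change of the members was -0.10, against -0.02 over all genes, and 73 of 83 were below 0. At an unadjusted p under 0.05 there were 2 members, rpl26 and rpl7l1, and DESeq2 also called 1 higher and 0 lower.

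In rad21+/- against wild type 1 member was called higher and 0 lower, against 10.8% and 9.75% of all genes. The member median was -0.16 and 78 of 83 values were below 0, with 1 member at an unadjusted p under 0.05. In stag2b-/- 0 members were called in either direction by edgeR or DESeq2, 1 had an unadjusted p under 0.05, and 2.41% and 3.88% of all genes were called higher and lower. There the member median was -0.04. Between rad21-/- and rad21+/- 0 members were called by either tool, 1 had an unadjusted p under 0.05, and the background was 1.47% and 3.84%, with a member median of 0.06.

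The sums of several marker lists differed between untreated wild type and the rad21 genotypes. All 4 neuronal markers were above 1 CPM in every library, and their sum was 76.8 to 118.2 CPM in untreated wild type, 125.3 to 160.7 in rad21-/- and 139.6 to 166.3 in rad21+/-. The sum of 5 yolk markers was 50.1 to 679.6, 472.3 to 750.4 and 648.3 to 840.8 CPM, with ttr at 0 in every library, and these ranges overlap.

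The 5 matched blood and endothelium markers, all above 1 CPM in every library, summed to 249.9 to 352.7 CPM in wild type, 130.8 to 196.0 in rad21-/- and 69.1 to 137.2 in rad21+/-. The 4 matched muscle markers summed to 65.2 to 162.0, 195.3 to 286.2 and 123.9 to 263.7 CPM, and the tailbud markers to 2663 to 3310, 2088 to 2497 and 2158 to 2787 CPM. Wild type did not overlap either rad21 genotype for neurons and blood, nor rad21-/- for muscle and tailbud. Their part in the member values was not tested.

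The member medians moved when single libraries were left out. The share followed the replicate number, so leaving out 1 library also left the groups with unequal sets of numbers. The part of the library itself cannot be told from that of its number, here and for the medians given below. When replicate 1 of untreated wild type was left out, the library with the highest share in its group, they became 0.07 in rad21-/-, 0.01 in rad21+/- and 0.13 in stag2b-/-. The absence of wild-type replicate 2, also untreated, gave -0.19 in rad21-/- and -0.12 in stag2b-/-, and without replicate 1 of untreated rad21+/- it was -0.25 in that genotype. Leaving out replicate 3 of untreated rad21+/- turned the median between the rad21 genotypes to -0.04, and leaving out replicate 1 of untreated rad21-/- turned it to -0.02. In stag2b-/- the median was 0.05 without its own untreated replicate 2.

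The precision of these estimates was similar for all well-covered members. Standard errors of the 80 genes ranged from 0.12 to 0.24 log2 units with a median of 0.16. In rad21-/- their 95% intervals lay within -0.68 and 0.87, in rad21+/- within -0.86 and 0.69, and in stag2b-/- within -0.61 and 0.49. With 4 pools a group, a missed threshold does not show that levels were equal.

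The called member was the row named rpl26 in both rad21 genotypes. Whether this row holds the main expressed rpl26 gene was not tested. Its raw counts were 6, 4, 12 and 17 in untreated wild type, 27, 12, 14 and 13 in rad21-/-, and 12, 25, 20 and 17 in rad21+/-, in libraries of unequal depth. Scaled to depth, neither rad21 group overlapped wild type, whose highest library had 0.197 CPM while the lowest values were 0.220 in rad21-/- and 0.221 in rad21+/-. The log2 fold change was 1.27 (SE 0.42, edgeR adjusted p = 0.0275) in rad21-/- and 1.26 (SE 0.42, adjusted p = 0.0392) in rad21+/-. In stag2b-/- it was 0.94 (SE 0.42, adjusted p = 0.212).

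The call for rpl26 depended on single libraries. In rad21-/- it was lost when replicate 1 or 2 of untreated wild type or replicate 1 of rad21-/- was left out, with adjusted p of 0.054, 0.0713 and 0.12 (edgeR). In rad21+/- it was lost without wild-type replicate 1, 2 or 3 or rad21+/- replicate 2, 3 or 4, with adjusted p between 0.0648 and 0.105. It was also lost in both genotypes when only the 8 libraries compared were fitted (adjusted p = 0.0621 and 0.0651).

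The second question was how the genes answered BIO in each genotype. In wild type 1 of 83 members was called higher and 0 lower, against 7.58% and 9.76% of 21385 genes tested, and the member median was -0.03. The called row was rpl26, with counts of 19, 12, 12 and 29 with BIO, and a log2 fold change of 1.24 (SE 0.41, edgeR adjusted p = 0.034). This contrast and those of the rad21 genotypes share the untreated wild-type libraries, so their rpl26 calls are not separate observations. The untreated wild-type mean, 0.14 CPM, was the lowest of the 8 groups. The call was lost without replicate 1 or 2 of untreated wild type or replicate 1, 3 or 4 of BIO-treated wild type, with adjusted p between 0.0519 and 0.128. The sign of the wild-type median was not stable, since it became 0.15 without untreated replicate 1, -0.12 without BIO replicate 1, 0.01 and 0.02 without BIO replicates 2 and 3, and 0.03 when libraries were scaled to their totals only.

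In the mutants every member, or all but 1, had a positive estimate with BIO, yet none passed the test in the fit without a term for the replicate number. With that number as a block, most members were called in rad21+/- and fewer in rad21-/-, in both above the share of all genes called in either direction. The counts and these shares are given in the last section. For stag2b-/- the share under the block is not given, so its count is not read as a result about the members. In rad21-/- 83 of 83 estimates were above 0 with a median of 0.19, and 0 were called higher or lower, against 2.1% and 5.06% of all genes. At an unadjusted p under 0.05 there were 12 members, and DESeq2 called 0. In rad21+/- 83 of 83 were above 0 with a median of 0.27, and 0 were called against 1.31% and 2.31% of all genes, with 26 members at an unadjusted p under 0.05 and 1 called by DESeq2. In stag2b-/- 82 of 83 were above 0 with a median of 0.14, and 0 were called against 3.26% and 4.72%, with 1 member at an unadjusted p under 0.05 and 0 called by DESeq2.

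Each of these 3 medians stayed above 0 when any library was left out, and it ranged from 0.08 to 0.27 in homozygous rad21 mutants, from 0.17 to 0.35 in heterozygotes and from 0.04 to 0.22 in stag2b-/-. The lowest values came without BIO replicate 1 in rad21-/- and stag2b-/- and without untreated replicate 3 in rad21+/-. Because the members of a library move together, 83 positive signs are not 83 separate observations. The all-gene medians for these contrasts were 0.01, -0.01 and -0.01. The 95% intervals of the 80 well-covered members lay within -0.38 and 0.66 in rad21-/-, -0.36 and 0.71 in rad21+/-, and -0.34 and 0.79 in stag2b-/-.

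**Figure D3:**
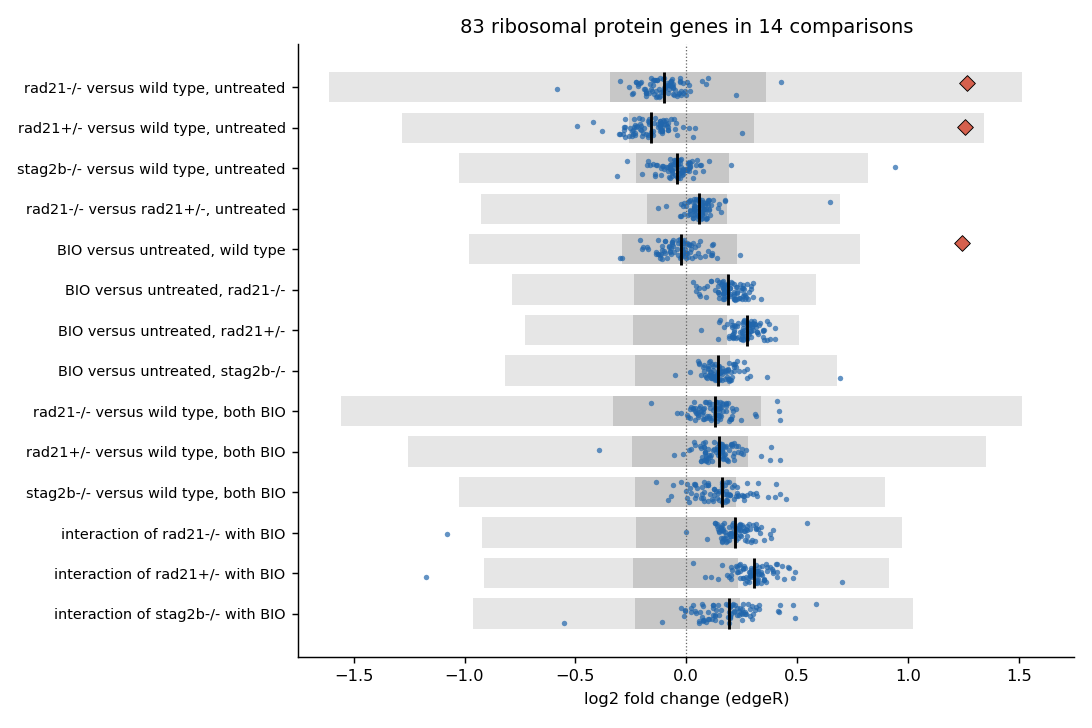
Log2 fold change of each of the 83 genes (points, x axis) in 14 comparisons (rows), with the member median as a black line. Dark and light grey bars span the middle 50% and 90% of all genes tested, and red diamonds mark rpl26 where it was called at 5% FDR: no other member was called.

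Skin and tailbud markers moved with BIO. All 6 skin markers were above 1 CPM in every library, and their sum was 30724 to 68098 CPM in untreated wild type and 20815 to 28721 with BIO. In rad21-/- the sum was 38357 to 53476 untreated and 25693 to 36858 with BIO, in rad21+/- 34410 to 49776 and 31734 to 33813, and in stag2b-/- 46227 to 57522 and 31088 to 37259. The groups did not overlap in any genotype, including wild type. The tailbud sum was 2663 to 3310 CPM untreated and 3393 to 3650 with BIO in wild type, and 2088 to 2497 and 2569 to 2868 in rad21-/-, without overlap. In rad21+/- it was 2158 to 2787 and 2710 to 3216, and in stag2b-/- 2564 to 2677 and 2645 to 2894, with overlap in both. The part of these tissues in the ribosomal protein values was not tested.

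The member nearest to a call with BIO was rplp0. In rad21+/- it stood at 5209, 4461, 3523 and 4537 CPM untreated and at 5741, 5007, 5529 and 6234 with BIO. Only the highest untreated pool overlapped the treated ones. The log2 fold change was 0.34 (SE 0.11, edgeR adjusted p = 0.0692), and the adjusted p was 0.0336 with DESeq2 and 0.0456 when scaled to library totals. In rad21-/- rplp0 stood at 4954, 4336, 4254 and 4486 CPM untreated and 6352, 5199, 4904 and 5346 with BIO, a log2 difference of 0.27 with an adjusted p of 0.128.

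Other members of known role gave estimates of similar size in the rad21 genotypes, with wide intervals. Those of rps6, rpl10 and rpsa were lower in stag2b-/-. Rps6, the small-subunit protein phosphorylated by S6 kinase, had log2 fold changes with BIO of 0.22 in rad21-/- (95% interval -0.07 to 0.50), of 0.26 for rad21+/- (-0.03 to 0.54) and 0.05 for stag2b-/- (-0.23 to 0.34). Rpl10, which completes the large subunit late in assembly, had 0.26 (0.03 to 0.49), 0.31 (0.08 to 0.54) and 0.10 (-0.12 to 0.33). Rpsa, the small-subunit protein also known as a laminin receptor, had 0.27 (0.02 to 0.52), 0.35 (0.09 to 0.60) and 0.01 (-0.24 to 0.27).

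Among genes mutated in Diamond-Blackfan anaemia, the BIO estimates in rad21+/- were 0.27 for rps19, 0.30 for rps24, 0.31 for rpl35a and 0.25 for rps26. In the same order they were 0.11, 0.17, 0.16 and 0.17 in rad21-/-, and -0.05, 0.22, 0.12 and 0.19 in stag2b-/-. In wild type they were -0.03, -0.03, -0.13 and -0.002. None of these was called in any genotype, and in rad21+/- the edgeR adjusted p ran from 0.24 to 0.367. Rpl38, needed in mice for translation of Hox messages, had 0.36 (-0.06 to 0.79) in stag2b-/-. Its estimates were 0.17 in rad21-/-, 0.20 in rad21+/- and -0.13 in wild type. Rps27a, which is made as a fusion with ubiquitin, had 0.15, 0.21 and 0.22 in rad21-/-, rad21+/- and stag2b-/-, and rps14, the gene lost in the human 5q- syndrome, had 0.17, 0.28 and 0.14.

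Comparisons among BIO-treated tailbuds asked whether the mutants differed once Wnt signalling was stimulated. In rad21-/- against wild type 0 members were called, against 16.8% of all genes higher and 18.8% lower, with a member median of 0.13 and 2 members at an unadjusted p under 0.05. In rad21+/- 0 were called against 11.7% and 11.2%, with a median of 0.15 and 3 such members. In stag2b-/- 0 were called against 6.56% and 7.04%, with a median of 0.16 and 3 such members. DESeq2 called 1, 0 and 1. With the replicate number as a block, more members were called in each, as given in the last section. The shares of all genes under that block are not given for these comparisons, so the calls are not read as results about the members. These comparisons share the BIO-treated wild-type libraries, and without replicate 1 of that group the medians were 0.23, 0.25 and 0.24.

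The members closest to the threshold there, chosen after their values were seen, were rpl24 and rpl22l1. Rpl24, a large-subunit protein that bridges to the small subunit, stood at 1583, 1245, 1243 and 1321 CPM in BIO-treated wild type and at 2321, 1632, 1510 and 1750 in rad21-/-. The groups overlapped by 1 library each. Its log2 fold change was 0.42 (SE 0.17, edgeR adjusted p = 0.0542) in rad21-/- and 0.42 (SE 0.17, adjusted p = 0.0751) in rad21+/-, and in rad21-/- it passed with DESeq2 (adjusted p = 0.038). Leaving out replicate 1 of BIO-treated wild type gave an edgeR adjusted p of 0.0271 in rad21-/- and 0.0463 in rad21+/-, and leaving out replicate 3 of BIO-treated rad21-/- gave 0.0369.

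Rpl22l1 is the paralog of Rpl22, an RNA-binding large-subunit protein that in mice represses it. It stood at 388, 282, 268 and 324 CPM in BIO-treated wild type and 576, 346, 376 and 426 in stag2b-/-. The log2 fold change was 0.45 (SE 0.16, edgeR adjusted p = 0.0581), with DESeq2 at an adjusted p of 0.0444. Without replicate 1 of BIO-treated wild type the edgeR adjusted p was 0.0312, and without replicate 2 of BIO-treated stag2b-/- it was 0.0329. In the untreated comparison the estimate was 0.01 (95% interval -0.28 to 0.31).

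The interaction terms asked whether the answer to BIO differed between each mutant and wild type. For rad21-/- 0 members were called, against 0.393% of all genes higher and 0.482% lower, with a member median of 0.22. For rad21+/- 0 were called against 0.426% and 0.486%, with a median of 0.31, and for stag2b-/- 0 were called against 0.711% and 0.631%, with a median of 0.19. At an unadjusted p under 0.05 there were 1, 8 and 0 members, and DESeq2 called 0 in each. With the replicate number as a block some members were called for rad21+/-, as given in the last section. The share of all genes is not given there for this term, so these calls are not read as a result about the members. Without replicate 1 of untreated wild type the medians were 0.05, 0.12 and -0.02.

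Duplicated genes allow a measure that does not depend on depth or scaling, the log2 ratio of the counts of both copies within a library. There were 9 pairs by symbol, of which 7 are described. Copies of nearly equal level were rpl5a and rpl5b (mean log2 ratio 0.04) and rps27.1 and rps27.2 (0.39). Rps26 had fewer counts than rps26l (-0.59). Far apart were rpl7 and rpl7l1 (3.58) and rps8a and rps8b (11.3), the last resting on few counts of rps8b. Pairing by symbol does not show that both genes make the same ribosomal protein, and for rpl7l1 this was not tested. Fragments that mapped to both copies were not counted, so ratios of near-identical copies are uncertain.

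The widest shift in balance was in the acidic stalk protein P2. Its copies, rplp2 on chromosome 6 and rplp2b on chromosome 7, had log2 ratios of -1.93, -2.14, -2.28 and -1.97 in untreated wild type. The ratios were -1.3, -1.53, -1.56 and -1.65 in rad21-/- and -1.63, -1.47, -1.56 and -1.64 in rad21+/-, and neither group overlapped wild type. In stag2b-/- they were -2.11, -2.20, -2.25 and -2.18, within the range of wild type.

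The mean ratio was 0.57 higher in rad21-/- and 0.51 higher in rad21+/- than in wild type, and 0.10 lower in stag2b-/- (exact permutation p = 0.0286, 0.0286 and 0.314, two-sided, n = 4 a group). The smallest p that 4 against 4 can give is 0.0286. Over the 63 pair tests the Benjamini-Hochberg adjusted p of the first results was 0.225, so they do not pass correction. With that floor, correction could be passed only if many of the 63 tests reached it together. The missed threshold therefore decides nothing about a shift in this pair. With BIO the ratio in rad21+/- was 0.19 lower than untreated, again without overlap (exact p = 0.0286, adjusted 0.225).

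The copies were also read separately. Rplp2 stood at 502, 260, 251 and 316 CPM in untreated wild type, at 593, 371, 403 and 412 in rad21-/- and at 489, 395, 317 and 380 in rad21+/-. Rplp2b stood at 1914, 1147, 1220 and 1238 CPM in wild type and at 1463, 1068, 1189 and 1296 in rad21-/-. Wild type and the rad21 groups overlapped for each copy taken alone. Rplp2 differed from wild type by 0.42 (SE 0.21, edgeR adjusted p = 0.133) in rad21-/- and by 0.25 (SE 0.21, adjusted p = 0.436) in rad21+/-. The adjusted p in rad21-/- was 0.00755 without replicate 1 of untreated wild type, 0.039 with library totals, and 0.00463 when libraries were scaled to the summed count of the members, a setting chosen after the values were seen.

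The other pair ratios moved less. Rps26 against rps26l differed from untreated wild type by -0.11 in rad21+/- and by -0.13 in stag2b-/-, without overlap. With BIO that ratio differed by 0.09 in stag2b-/- and the rpl22 to rpl22l1 ratio by 0.11 in rad21+/-. Each had an exact p of 0.0286 and an adjusted p of 0.225. Of the 63 tests, none passed correction, which the floor of 0.0286 put nearly out of reach.

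**Figure D4:**
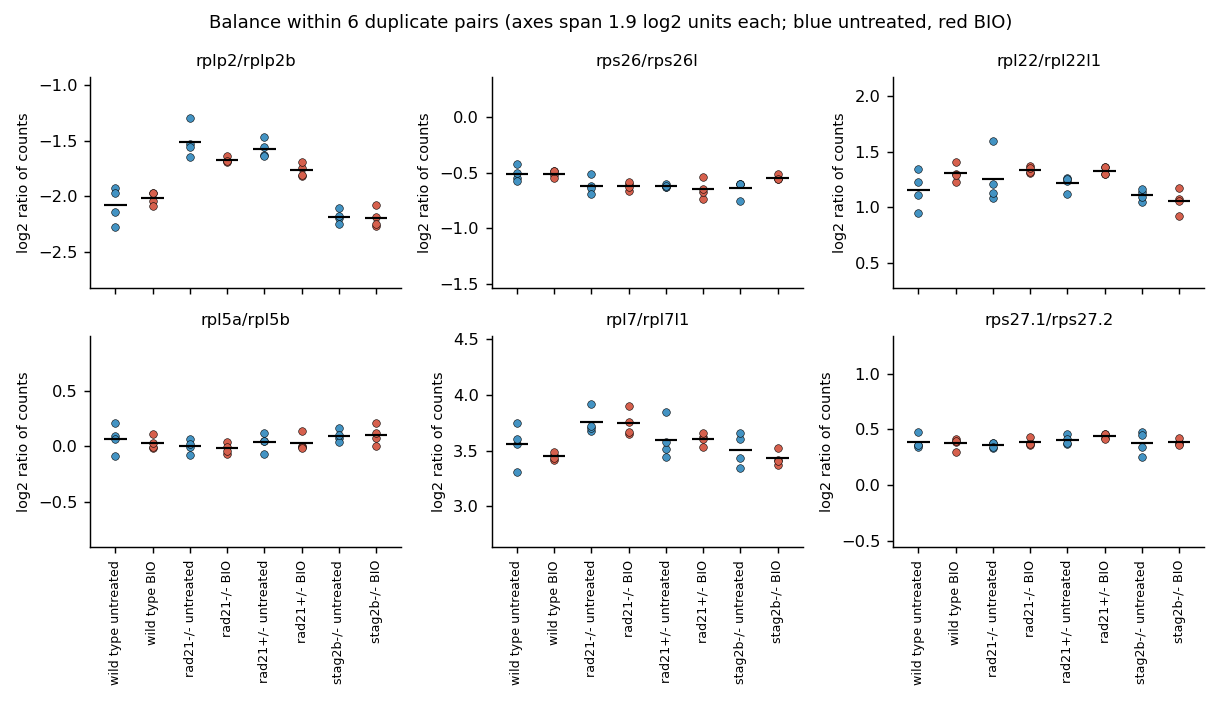
Log2 ratio of counts within 6 duplicate pairs (y axes, 1.9 log2 units each), with 1 point per library and the group mean as a bar, untreated in blue and BIO in red. The ratio of rplp2 to rplp2b lay between -1.82 and -1.3 in the rad21 lines and between -2.28 and -1.93 in wild type and stag2b-/-.

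Some ribosomal proteins have symbols that the rule leaves out. Of faua, faub and rack1, which encode further ribosomal proteins, only faub was called, by 1.18 (edgeR adjusted p = 4.53e-06) in untreated rad21-/- and 1.05 (adjusted p = 2.79e-05) in rad21+/-. In rad21-/- faua had an estimate of -0.09 and rack1 of -0.05. Of 28 matched 5′ TOP messages of translation factors, 1 was higher and 2 were lower in untreated rad21-/-, against 15.8% and 16.7% of all genes. In rad21+/- 0 were called, against 10.8% and 9.75%, and in stag2b-/- 1 was higher and 3 lower, against 2.41% and 3.88%. With BIO 4 were higher and 1 lower in wild type (all genes 7.58% and 9.76%), 6 higher in rad21-/- (2.1%), 4 higher in rad21+/- (1.31%), and 4 higher and 1 lower in stag2b-/- (3.26% and 4.72%). The elongation factor gene eef1a1l1 rose by 0.35 (adjusted p = 0.00809) in rad21-/- with BIO.

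Genes that build ribosomes were counted in the same way. This list, the 5′ TOP list above and the lists below were chosen with earlier results of these data known, so their counts are descriptive. Of 29 matched biogenesis genes, 15 were lower and 1 was higher in untreated rad21-/-, with a median of -0.34, where 16.7% of all genes were lower and 15.8% higher. Among them were dkc1, which encodes the pseudouridine synthase of box H/ACA particles (-0.54, edgeR adjusted p = 0.0057), and nop56, of box C/D particles (-0.47, adjusted p = 0.00881). In rad21+/- 2 were lower and 1 higher, against 9.75% and 10.8% of all genes, and in stag2b-/- 0 were called. The shares of all genes called higher with BIO were 7.58%, 2.1%, 1.31% and 3.26% in wild type, rad21-/-, rad21+/- and stag2b-/-, and those called lower 9.76%, 5.06%, 2.31% and 4.72%. With BIO 5, 4, 2 and 6 were higher and 0 lower in that order, and the nucleolar gene npm1a rose in each, by 0.45 to 0.53.

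Of 75 mitochondrial ribosomal protein genes, 15 were lower in untreated rad21-/- and 6 in rad21+/-, where 16.7% and 9.75% of all genes were lower. The counts of lower genes lie near those shares. In both, 0 were higher, against 15.8% and 10.8% of all genes, and 1 was higher in stag2b-/-, against 2.41%. With BIO 19, 3, 12 and 12 were higher and 0 lower in wild type, rad21-/-, rad21+/- and stag2b-/-. The shares of all genes were 7.58%, 2.1%, 1.31% and 3.26% higher, and 9.76%, 5.06%, 2.31% and 4.72% lower. Of 14 genes of the p53 pathway, 9 were higher and 1 was lower in untreated rad21-/-, 8 were higher in rad21+/- and 0 were called in stag2b-/-, where 15.8%, 10.8% and 2.41% of all genes were higher. They included mdm2, by 1.3 in rad21-/- and 1.45 in rad21+/-, and cdkn1a, by 1.42 and 1.39. For Rpl5 and Rpl11, whose proteins bind Mdm2, the estimates in rad21-/- were -0.07 for rpl5a, 0.01 for rpl5b and -0.03 for rpl11. These are RNA counts, which do not measure free protein, so binding to Mdm2 was not tested.

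Of 17 genes of growth control, 3 were higher and 4 lower in untreated rad21-/-, and 2 were higher and 2 lower in rad21+/-. These counts lie near the shares of all genes, 15.8% and 16.7% in rad21-/- and 10.8% and 9.75% in rad21+/-. The transcription factor gene myca was lower by 2.59 log2 units (edgeR adjusted p = 4.48e-09) in rad21-/-, and the S6 kinase genes moved apart, rps6kb1a by 0.97 and rps6kb1b by -0.38. Larp1 was not called in any of the untreated or BIO comparisons. Whether the calls in these lists differ in frequency from those of the 83 members was not tested.

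Some members share a chromosome with a mutated gene. Rad21a lies on chromosome 16 with 5 members, whose log2 fold changes in untreated rad21-/- ran from -0.14 to -0.02. Stag2b lies on chromosome 14 with 2 members, rpl39 and rpl26, at -0.10 and 0.94 in untreated stag2b-/-, neither of them called.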

How the data were processed

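RNA from pools of 80 tailbuds was made into stranded, poly(A)-selected libraries by the authors, who trimmed reads with Cutadapt, aligned them with HISAT2 to GRCz11, sorted them with SAMtools and counted fragments over exons of Ensembl release 98 with featureCounts 1.5.3, reverse-stranded. The deposited values are raw counts per gene, not normalised. By the stated options, fragments mapping to several places or overlapping several genes were not counted. The file's comparison columns held no results, and all 32 count columns were used.

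Symbols were read from a gene name table, which named 28988 of 32057 genes; with names paired to identifiers in the study's supplementary tables, 29008 were named. For 80 of 83 members the symbol was found in RefSeq zebrafish genes on the same chromosome; list genes were matched likewise. The members and lists were chosen with earlier results of these data known. Members described by name were those called, the highest and lowest per length, duplicates by symbol and a set of known roles.

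Counts were fitted with edgeR 4.0.16 (limma 3.58.1, R 4.3.3; filterByExpr, TMM factors, robust quasi-likelihood): 16 untreated libraries for untreated genotypes, all 32 for BIO, treated and interaction contrasts. Calls used a 5% false discovery rate by Benjamini and Hochberg over all genes. CPM were scaled with TMM factors of the 32-library fit; levels per kilobase divide them by the exon length in the file. Pair ratios used counts plus 0.5 and exact permutation tests (scipy 1.17.1). Intervals are 95%. Alternatives were DESeq2 1.42.0, other scalings, no filter, other sets of libraries, a replicate block and leaving out each library. The fits were tested on simulated counts drawn separately for each gene. These lack the common movement of the members, so the test does not show how the fits treat genes that move together. Among 48 pairs of replicates none was a duplicate: chi-square per degree of freedom was at least 8.75. Replicates are separate pools of embryos; nothing states whether they came from separate clutches, so p-values measure the spread between pools. With at least 32464614 fragments a library, counting error was small except for rpl26, rps8b and rps11l. Results for some genes are not reported here.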

Additional observations from a re-analysis of the deposited data

Results flagged for a closer look

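Within groups of 4 libraries, 72 sets of values (the share of ribosomal protein fragments, the pair ratios and rpl26) were searched for a library far from the other 3, and 7 were found, where chance gives about 1 in 20, or 3.6. The log2 ratio of rps27.1 to rps27.2 was 0.48 in replicate 2 of untreated wild type, against at most 0.36 in the others. In replicate 1 of untreated rad21-/- the ratio of rpl7 to rpl7l1 was 3.92 (others at most 3.72), and that of rps8a to rps8b was 12.18 (others at most 10.91), the latter with 27 counts of rps8b. The ratio of rpl22 to rpl22l1 was 1.12 in replicate 3 of untreated rad21+/-, against at least 1.24 in the others. In replicate 1 of untreated stag2b-/- the ratio of rps26 to rps26l was -0.75, against -0.60. In replicate 1 of BIO-treated rad21+/- the ratio of rpl5a to rpl5b was 0.14, against at most 0.00. In replicate 1 of BIO-treated stag2b-/- rpl26 stood at 0.192 CPM, against at least 0.4997. No group held such a library in the share of ribosomal protein fragments, and 5 of the 7 values came from libraries numbered 1.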

How the results depend on the processing

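The number of members called was unchanged or within 1.5 times in most settings. Signs of single genes were compared only for rpl26, rplp0, rplp2, rpl7l1, rpl24 and rpl22l1, in chosen comparisons, and none of these changed sign. Member medians did: those of the untreated comparisons, of BIO in wild type and of the stag2b-/- interaction turned without single libraries, as given with each. In untreated rad21-/- the count of 1 became 2 with library totals, 2 with all 32 libraries, 2 when scaled to the members' total (a scaling chosen after the data were seen) and 0 with only the libraries compared, and it ranged from 0 to 1 when single libraries were left out. In untreated rad21+/- the count of 1 became 0 without a low-count filter, 2 with the members' total and 0 with only the libraries compared, and ranged from 0 to 1. For BIO in wild type the count of 1 became 0 with the members' total and 0 with only the libraries compared, and ranged from 0 to 1. For BIO in rad21+/- the count of 0 became 1 with DESeq2 and 1 with library totals. Among BIO-treated groups the count of 0 in rad21-/- became 1 with DESeq2, 1 with DESeq2 size factors, 1 when scaling factors left out the members, 3 with library totals, 2 with the members' total and 3 with only the libraries compared, and ranged from 0 to 2. In rad21+/- it became 1, 1 and 3 with library totals, the members' total and only the libraries compared, and ranged from 0 to 1. In stag2b-/- it became 1 with DESeq2, 1 with library totals, 2 with the members' total and 1 with only the libraries compared, and ranged from 0 to 1. The cause of these changes was not tested. Scaled to the members' total, the member median was -0.01 for BIO in rad21-/-, -0.01 for BIO in rad21+/-, and -0.01 and 0.01 for the interactions of rad21-/- and rad21+/-, which that scaling fixes near 0 by construction.

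With the replicate number as a block the counts were 3 in untreated rad21-/-, 5 in rad21+/-, 2 for BIO in wild type, 23 for BIO in rad21-/-, 52 for BIO in rad21+/- and 2 for BIO in stag2b-/-. With the same block they were 12, 17 and 17 among BIO-treated rad21-/-, rad21+/- and stag2b-/- against wild type, and 7 for the interaction of rad21+/-. All 23 and all 52 were higher with BIO, where 11.3% and 8.59% of all genes were called in either direction. For the other block counts the shares of all genes are not given here, so they are not read as results about the members. Over all genes, deviations of same-numbered libraries from their group means correlated between -0.15 and 0.38. Every correlation was above 0.1 in 3 of 28 pairs of groups, and 65 of 112 correlated best with their own number. Over all genes the numbers are thus a hint of pairing, and the labels do not say what they mark. The members were read by another measure, the sign of their median deviation in each library, which cannot be set against these correlations. That median was above 0 in 8 of 8 libraries numbered 1 and 8 of 8 numbered 4, and in 0 of 8 numbered 2 or numbered 3. A fit without the block leaves that common movement in the spread between pools. Depth limits rpl26, rps8b and rps11l, while the spread between pools limits the other members.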
